A study of Mus musculus with 12 samples.

Results

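Double-positive (DP) thymocytes, the CD4+ CD8+ cells of the thymus that rearrange and then test their T cell receptor alpha chain, were compared between mice that lack the E protein inhibitors Id2 and Id3 in T cells and wild-type mice. The comparison took every column of the deposited expression table that its header gives to these cells, which is 4 of the 11 libraries in the table, 2 from L-DKO mice and 2 from wild-type (WT) mice, and it covered all 11815 genes listed. L-DKO mice carry floxed Id2 and Id3 alleles and a Cre transgene driven by the promoter of Lck, which is active in T-lineage cells, so that other cells of these mice keep both genes. WT mice are labelled B6. Each library was made from sorted cells pooled from 2 to 3 mice aged 4 to 5 weeks. The other libraries were L-DKO and WT invariant natural killer T (iNKT) cells, sorted as CD1dTet+ TCRβ+, with 1 WT library in the table, and γδ T cells, sorted as TCRγδ+ CD3+, of mice lacking Id3 in all cells and of WT mice. They served to set the DP values beside those of other thymic T cells.

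E proteins (E2A, HEB and E2-2, encoded by Tcf3, Tcf12 and Tcf4) are transcription factors that bind DNA as dimers at E-box sequences. Id proteins pair with them but lack a DNA-binding region, so they hold E proteins off DNA. In DP thymocytes E proteins keep the cells at this stage, sustain the recombination genes and favour survival, and signals from the pre-T cell receptor and the T cell receptor induce Id3. The comparison asks what loss of both Id proteins does to gene expression in DP cells, the population from which iNKT cells are selected.

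Several features of the samples follow genotype and cannot be told apart from it. The labels give the WT cells as sorted TCRγδ- CD4+ CD8+ and the L-DKO cells as sorted CD1dTet- CD4+ CD8+, so cells binding the CD1d tetramer were removed from the L-DKO sort only, whereas the methods of the study give the former gate for all DP cells of its RNA-seq. More cells were sorted in total from L-DKO than from WT mice. The strain was either C57BL/6 or a hybrid of C57BL/6 and 129, and the labels do not say which sample had which. The values were log2 of FPKM (fragments mapped, scaled by the length of the transcript and by the size of the library) plus 1, and sequencing depth is unknown. FPKM summed to 702189 and 673206 in the L-DKO libraries (called a and b here, in the order of the table) and to 563040 and 498489 in the WT libraries, of which small RNA, receptor segments and predicted genes took 48.6 to 49.6% and 38.4 to 44.3%. The mitochondrial ribosomal RNA mt-Rnr1 was at 28.8 and 50.6 FPKM in the L-DKO and at 205 and 2296 FPKM in WT, although ribosomal RNA was depleted from all libraries. The L-DKO pair correlated at Pearson's r = 0.972 across genes, the WT pair at 0.930 and the 4 pairs across genotypes at 0.928 to 0.930, so the WT libraries differed from each other about as much as from the L-DKO libraries. Outside small RNA, receptor segments and predicted genes these values were 0.988, 0.969 and 0.955 to 0.964.

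The deleted genes followed the labels. Id3 was at 6.16 and 3.09 FPKM in the L-DKO libraries and at 53.8 and 36.9 FPKM in the WT libraries. Both L-DKO values were far below both WT values, and Id3 fell by 3.07 on the log2(FPKM + 1) scale (SE 0.35, limma adjusted p = 0.0222). Id2, the other deleted gene, is hardly transcribed at the DP stage: it was at 0.13 and 0.27 FPKM in the L-DKO and at 2.25 and 2.64 FPKM in WT, without overlap, with a log2 difference of −1.52 (SE 0.43) that did not pass the test (adjusted p = 0.261). For scale, Id2 was at 553 FPKM in the WT iNKT library. The WT DP library with the higher Id3 had the lower Id2. Residual Id3 in the L-DKO DP cells was below that of the L-DKO iNKT libraries, which stood at 30.5 and 22.8 FPKM beside 42.4 FPKM in WT iNKT cells.

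Tcf12, which encodes HEB, was at 173 and 194 FPKM in L-DKO DP cells and at 245 and 303 FPKM in WT DP cells. It was lower in each L-DKO library (log2 difference −0.57, SE 0.20, adjusted p = 0.371), which did not pass the test. Tcf3, which encodes E2A, was at 58.8 and 48.1 FPKM against 56.7 and 57.0 FPKM, so its groups overlapped, and Tcf4 was at 8.89 and 13.3 against 11.5 and 19.6 FPKM. None of the 3 E protein genes passed the test, and Id1 and Id4 were not analysed here.

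In the test across all genes, a limma model over the 6 groups of libraries with Benjamini-Hochberg adjustment, 21 of 11815 genes differed between L-DKO and WT DP cells at adjusted p under 0.05 and are referred to as called. That is 0.178% of the genes. Of these, 14 were higher in L-DKO DP cells (0.118% of all genes) and 7 were lower (0.0592%). At an unadjusted p under 0.05 there were 1333 genes (11.3%), 916 higher and 417 lower, and 366 genes (3.1%) were more than 2-fold higher and 159 (1.35%) more than 2-fold lower on the log2(FPKM + 1) scale. The calls depend on single libraries: without L-DKO library a or without L-DKO library b, 3 genes passed, 2 of them among the 21 in each case, without WT library a 24 passed, 10 of them among the 21, without WT library b 18 passed, 6 of them among the 21, and without either WT γδ library, which enter through the shared estimate of the spread, 8 passed. Cd96 and Rps3a3 passed in each of the 10 fits that left out 1 library and in each of the 10 other alternatives. Another 18 genes passed in 2 to 8 of the former. The 10 fits that left out 1 library are not 10 distinct checks. Leaving out either library of an iNKT or γδ pair gave the same DP test and kept all DP libraries. With the 4 DP libraries alone 23 genes passed, 10 of them among the 21. Nothing says that the pooled samples of a group were prepared apart, so p-values measure the spread between these libraries.

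**Figure D1:**
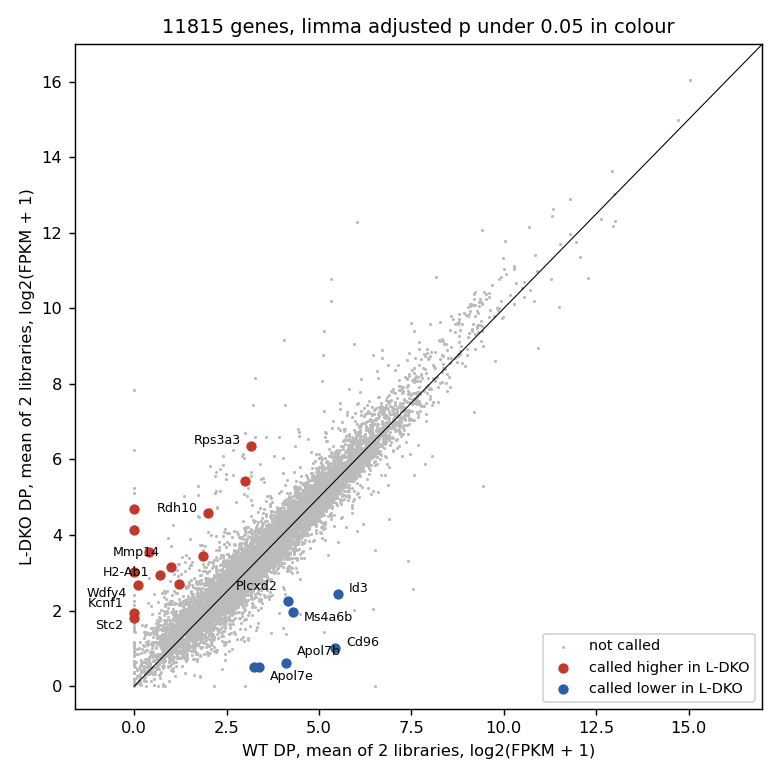
Mean of the 2 WT DP libraries (x axis) against the mean of the 2 L-DKO DP libraries (y axis), both in log2(FPKM + 1), for 11815 genes. Most genes lie along the line of equal values, and the 21 genes with a limma adjusted p under 0.05 stand off it, with Cd96 and Id3 the most highly expressed of the 7 lower genes.

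Cd96 showed the largest fall of the genes called. It encodes a receptor of T and NK cells for the poliovirus receptor family, and was at 1.22 and 0.82 FPKM in L-DKO DP cells and at 41.7 and 43.4 FPKM in WT DP cells. The L-DKO values were near the floor of the table while the WT values nearly coincided, and Cd96 fell by 4.44 on the log2 scale (SE 0.19, adjusted p = 0.000144). Its ligand gene Pvr was at 63.9 and 58.8 FPKM against 54.3 and 58.4 FPKM (log2 difference 0.12, adjusted p = 0.832). In L-DKO iNKT cells Cd96 was at 4.39 and 4.21 FPKM beside 43.9 FPKM in the WT iNKT library, and it fell there by 3.08 (adjusted p = 0.000931). In γδ T cells lacking Id3 alone it was at 25.0 and 29.5 FPKM beside 31.3 and 38.4 FPKM in WT. The DP and γδ differences in Cd96 themselves differed by −4.09 (adjusted p = 0.00156).

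Plcxd2, the gene next to Cd96 on chromosome 16, fell as well. It was at 3.60 and 3.88 FPKM in L-DKO DP cells and at 16.98 and 17.02 FPKM in WT DP cells, a fall of 1.92 (SE 0.17, adjusted p = 0.00928). In the RefSeq annotation of GRCm38.p6 Plcxd2 (chr16:45959261-46010413) and Cd96 (chr16:46035652-46120248) lie 25239 bases apart. The table held 10 genes within 1 Mb of Cd96, a window chosen after the values were seen. Of these, 2 fell, Plcxd2 and Cd96, on which the window was centred. At an unadjusted p under 0.05, 3 were higher and 4 lower, beside 7.75% and 3.53% of all genes. The lower genes were Cd96, Plcxd2, Gm15638 and Slc35a5, so the choice of window adds to their count and no excess can be read from it. Gm15638, which overlaps Plcxd2 so that their reads may not be separable, had a log2 difference of −1.87 (adjusted p = 0.0731).

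Further along the same stretch, Cd200, which encodes an inhibitory ligand of the immunoglobulin family, stood higher in L-DKO DP cells. It was at 10.003 and 11.6 FPKM in the L-DKO and at 0.53 and 0.37 FPKM in WT, a log2 difference of 3.03 (SE 0.46, adjusted p = 0.0711) that did not pass the main test and passed with the DP libraries alone (adjusted p = 0.027). It was also higher in both L-DKO iNKT libraries (14.7 and 43.2 FPKM beside 6.49 FPKM in WT, adjusted p = 0.125). Btla, an inhibitory receptor gene in the same window, was at 3.53 and 3.59 FPKM against 1.91 and 1.44 FPKM (log2 difference 0.78, adjusted p = 0.241), and Slc35a5, a sugar transporter family gene, at 10.2 and 11.6 against 24.3 and 20.9 FPKM (−0.98, adjusted p = 0.368). The genes of the window that passed both fell, and none of those higher passed. In Id3-deficient γδ T cells Plcxd2 was at 8.14 and 10.7 FPKM beside 7.59 and 7.37 FPKM in WT, and of the 10 genes Btla alone passed the test there (log2 difference 1.63, adjusted p = 0.00324).

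**Figure D2:**
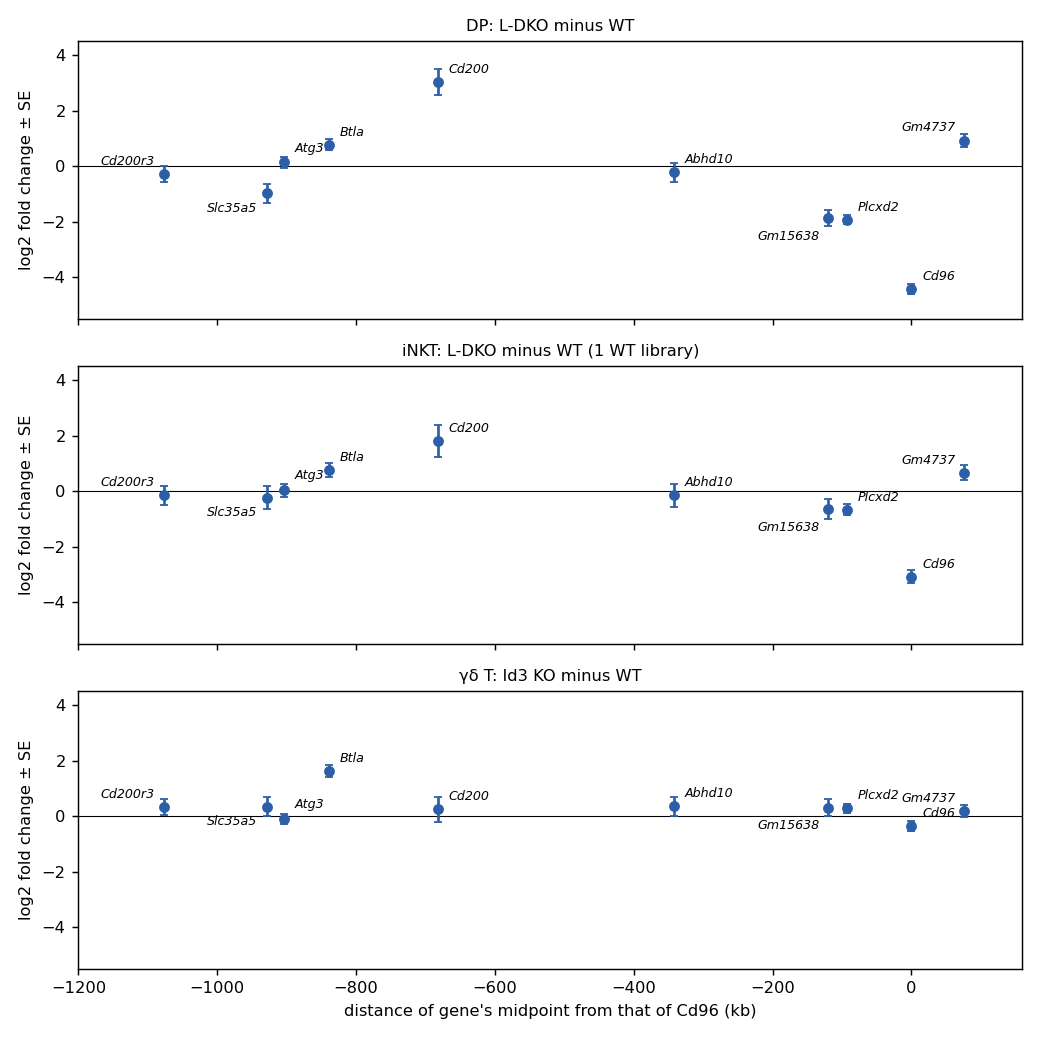
Log2 fold change with its standard error (y axis) of the 10 genes measured within 1 Mb of Cd96, by the distance of each gene's midpoint from that of Cd96 in kb (x axis), in DP cells (top), iNKT cells (middle, 1 WT library) and γδ T cells (bottom). Cd96, Plcxd2 and Gm15638 lie below 0 and Cd200 above 0 in both L-DKO populations, whereas in Id3-deficient γδ T cells the same genes lie near 0.

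The other genes that fell were Ms4a6b, Apol7b, Apol7e and 4930571N24Rik, beside Id3. Ms4a6b, a member of the family of tetraspanning membrane proteins that includes CD20, was at 2.86 and 2.98 FPKM in the L-DKO and at 18.3 and 18.9 FPKM in WT DP cells (fall of 2.32, adjusted p = 0.0203). Apol7b was at 0.58 and 0.49 against 16.9 and 15.8 FPKM (fall of 3.50, adjusted p = 0.0222), and Apol7e at 0.46 and 0.36 against 9.22 and 9.52 FPKM (fall of 2.88, adjusted p = 0.0182). Both belong to the apolipoprotein L family and lie 248246 bases apart on chromosome 15. They are close copies, so reads may have been divided between them and their values are not independent. Among the 31 genes measured within 1 Mb of Apol7b no other gene passed the test. 4930571N24Rik was at 0.28 and 0.59 against 6.44 and 10.98 FPKM (fall of 2.72, adjusted p = 0.0244). In each of these genes both L-DKO libraries lay well below both WT libraries.

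Of the 14 genes that rose, 7 are protein-coding in RefSeq with a known or proposed role, of which 6 are described here, and these do not share a pathway listed here. Rdh10, which oxidises retinol in the first step of retinoic acid synthesis, was at 23.1 and 22.4 FPKM in the L-DKO and at 1.73 and 4.86 FPKM in WT DP cells. The WT libraries differed from each other but neither came near the L-DKO libraries, and Rdh10 rose by 2.57 (SE 0.31, adjusted p = 0.027). It stood at 2.52 to 4.11 FPKM in all iNKT and γδ libraries of either genotype, so the L-DKO DP libraries were the only ones above 5 FPKM. The DP difference exceeded that in iNKT cells by 2.95 (adjusted p = 0.0371) and that in γδ T cells by 2.27 (adjusted p = 0.0425), neither of which passed with a pseudocount of 0.1 FPKM (adjusted p = 0.0621 and 0.0844). Of the other 10 measured genes of retinoid metabolism and response none passed the test: Dhrs3, a retinal reductase, was at 112 and 110 against 79.6 and 92.4 FPKM, and Rarb, a retinoic acid receptor, at 4.03 and 4.82 against 6.61 and 6.59 FPKM.

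H2-Ab1, the beta chain of the MHC class II molecule I-A, was at 7.13 and 6.39 FPKM in L-DKO DP cells and at 0.96 and 0.35 FPKM in WT DP cells. It rose by 2.25 (SE 0.24, adjusted p = 0.0199). In the other populations it went the other way: it fell from 17.3 FPKM in WT iNKT to 3.51 and 3.26 FPKM in L-DKO iNKT cells (log2 difference −2.06, adjusted p = 0.00798), and from 34.1 and 29.0 FPKM in WT γδ to 3.41 and 4.96 FPKM in Id3-deficient γδ T cells (−2.66, adjusted p = 0.000896). All mutant libraries thus lay between 3.26 and 7.13 FPKM while the WT libraries ranged from 0.35 to 34.1 FPKM. Wdfy4, a protein of antigen cross-presentation in dendritic cells, was at 7.22 and 4.05 FPKM against 0.10 and 0.04 FPKM in DP cells (rise of 2.59, adjusted p = 0.0222), and it too was lower in Id3-deficient than in WT γδ T cells (0.09 and 0.38 against 4.07 and 4.05 FPKM, adjusted p = 0.00576).

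Mmp14, a membrane-bound matrix metalloproteinase, was at 8.43 and 7.36 FPKM in the L-DKO and at 1.12 and 0.85 FPKM in WT DP cells, a rise of 2.16 (SE 0.21, adjusted p = 0.0161). Stc2, a secreted glycoprotein, was at 2.80 and 2.18 FPKM in L-DKO DP cells and listed at 0 in both WT DP libraries (adjusted p = 0.0222). Kcnf1, a potassium channel subunit, was at 3.17 and 2.54 FPKM and likewise listed at 0 in both WT DP libraries (adjusted p = 0.0409). With no depth known, no fold can be given for either. Stc2 and Kcnf1 were higher again in L-DKO iNKT cells, at 52.2 and 70.2 FPKM and at 66.1 and 102 FPKM, where the WT library was at 3.24 and 0.11 FPKM. Kcnf1 lies 7.917 Mb from Id2 on chromosome 12, and Gm4425, a transcribed pseudogene that also rose, 2.937 Mb from it. They were 2 of 58 genes measured within 10 Mb of Id2, beside 0.118% of all genes called higher. Within 10 Mb of Id3, 1 of 190 genes was called, Id3 itself, beside 0.178% of all genes. At an unadjusted p under 0.05, 10 genes were higher and 4 lower near Id2, and 15 and 14 near Id3, beside 7.75% and 3.53% of all genes. The lower genes include Id2 and Id3 themselves. Whether position near a deleted gene matters was not tested.

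The remaining 7 genes that rose were pseudogenes or predicted RNAs. Rps3a3, a pseudogene of the ribosomal protein gene Rps3a, was at 81.3 and 81.1 FPKM in L-DKO DP cells and at 8.12 and 7.88 FPKM in WT DP cells, with almost no spread within a genotype (rise of 3.19, SE 0.20, adjusted p = 0.00170). Gm10182 was at 43.5 and 41.2 against 9.62 and 5.01 FPKM (rise of 2.44, adjusted p = 0.0390), and Gm12901 at 9.75 and 11.6 against 0.73 and 0 FPKM (rise of 3.14, adjusted p = 0.00928). Gm10269, Gm26460 and Gm24276 were listed at 0 in both WT DP libraries. Reads of a pseudogene and its parent gene may not be separable, so these values are uncertain.

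**Figure D3:**
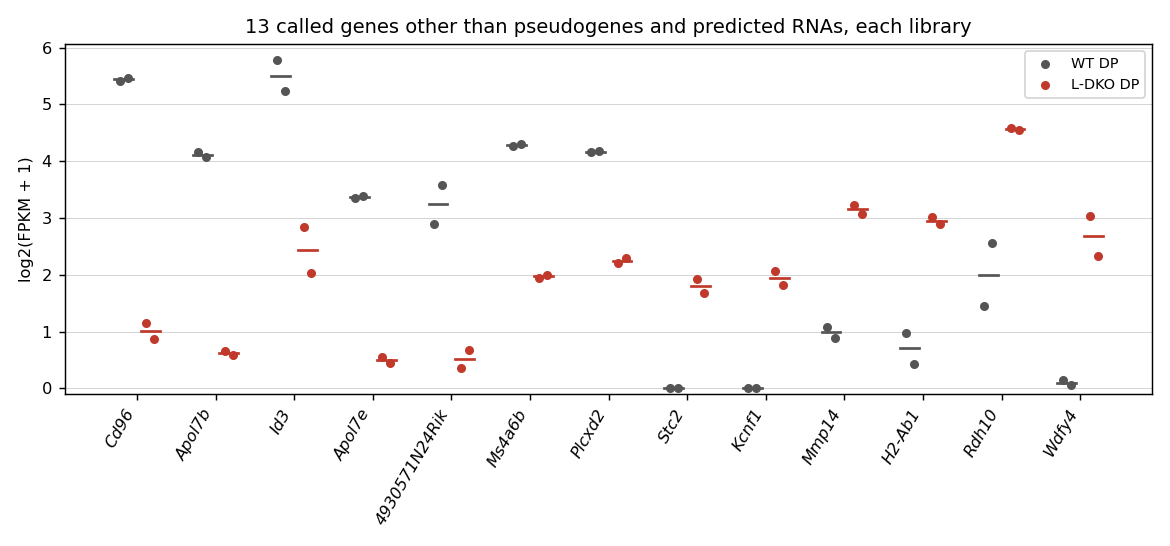
Values in log2(FPKM + 1) (y axis) of 13 of the 14 called genes that are neither pseudogenes nor predicted RNAs with Gm names, in each of the 2 WT and 2 L-DKO DP libraries (dots) with the group mean (line), ordered by fold change (x axis). The libraries of a genotype lie closer together than the genotypes in every gene shown, and Stc2 and Kcnf1 are at 0 in both WT libraries.

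Of the 21 genes, 11 were also called in the same direction in L-DKO against WT iNKT cells, 1 (H2-Ab1) in the opposite direction, and 9 were not called there, where 6.07% of all genes were called. Among the 14 genes higher in DP cells 7 were higher in iNKT cells, beside 2.18% of all genes, and among the 7 lower genes 4 were lower, beside 3.88%. In Id3-deficient against WT γδ T cells 7 were called in the same direction, 5 in the opposite direction and 9 not at all, beside 15.1% of all genes called there. Of the 7, 6 were higher, beside 6.78% of all genes called higher there. The 1 lower gene was Id3, deleted in both mutants, beside 8.35% of all genes called lower there. No library is shared between these comparisons, but all were fitted with the same estimate of the spread, which a gene of low spread enters each time, and the DP and iNKT libraries of a genotype come from the same mouse line. The Y-linked gene Uty was at 0.15 FPKM in the WT iNKT library and at 24.9 and 30.4 FPKM in the L-DKO iNKT libraries. In the iNKT comparison sex therefore cannot be told apart from genotype. Called higher in all 3 comparisons were 5 genes, Stc2, Kcnf1 and the pseudogenes Rps3a3, Gm12901 and Gm10182.

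E proteins bind E-boxes, and the promoters of RefSeq (250 bases before to 50 after a transcript start of the gene, GRCm38.p6) were searched on both strands for CAGCTG, for CACCTG with its complement CAGGTG, and for the general form CANNTG, which covers the former. A match says only that these letters occur. Of 10433 promoters of 8206 genes in the table, 14.4% held CAGCTG, 17.1% CACCTG or CAGGTG, and 63.2% CANNTG. Promoters were found for 4 of the 14 genes that rose, of which 1 held CAGCTG, 1 CACCTG or CAGGTG and 3 CANNTG, and for 6 of the 7 genes that fell, of which 0, 0 and 2 held them. The sequences below are those of the gene with the largest fall (Cd96), of both genes that rose with a match (Wdfy4 and Stc2), and of Ptcra, the pre-T cell receptor alpha chain and a known E protein target described further on. CAGCTG and CACCTG are in capitals.
Cd96, chr16:46120199-46120498 (minus strand): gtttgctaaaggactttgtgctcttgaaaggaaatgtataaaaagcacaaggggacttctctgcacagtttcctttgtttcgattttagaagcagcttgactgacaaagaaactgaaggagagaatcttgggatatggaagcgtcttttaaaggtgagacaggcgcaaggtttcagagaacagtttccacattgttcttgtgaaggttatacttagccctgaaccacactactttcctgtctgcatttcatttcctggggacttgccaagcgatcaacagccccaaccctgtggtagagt
Wdfy4, chr14:33185017-33185316 (minus strand): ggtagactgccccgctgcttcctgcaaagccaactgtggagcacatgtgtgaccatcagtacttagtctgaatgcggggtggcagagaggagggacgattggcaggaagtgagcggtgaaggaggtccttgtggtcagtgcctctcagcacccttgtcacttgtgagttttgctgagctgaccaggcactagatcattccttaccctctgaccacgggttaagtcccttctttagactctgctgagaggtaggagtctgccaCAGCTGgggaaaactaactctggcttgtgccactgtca
Stc2, chr11:31370012-31370311 (minus strand): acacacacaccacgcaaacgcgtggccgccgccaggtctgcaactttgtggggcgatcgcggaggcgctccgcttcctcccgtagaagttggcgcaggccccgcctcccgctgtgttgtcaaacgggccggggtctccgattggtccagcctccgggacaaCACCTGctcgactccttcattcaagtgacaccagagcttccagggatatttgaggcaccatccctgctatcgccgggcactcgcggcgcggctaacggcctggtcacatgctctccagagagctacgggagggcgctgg
Ptcra, chr17:46763663-46763962 (minus strand): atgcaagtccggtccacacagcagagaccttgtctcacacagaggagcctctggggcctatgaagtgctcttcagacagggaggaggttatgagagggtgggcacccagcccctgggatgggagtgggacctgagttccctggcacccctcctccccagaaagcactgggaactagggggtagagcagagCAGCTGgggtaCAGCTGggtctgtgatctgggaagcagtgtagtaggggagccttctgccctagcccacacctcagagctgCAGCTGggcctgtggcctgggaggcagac
The Ptcra promoter held 3 copies of CAGCTG, the Wdfy4 promoter 1 copy and the Cd96 promoter none. The start used for Wdfy4 lies 8789 bases inside the annotated gene and that of Apol7e 3183 bases inside, so the match in Wdfy4 is not at the outer end of its gene.

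Of 29 genes listed for the DP stage 0 passed the limma test, beside 0.178% of all genes. The test takes each gene's spread from all 6 groups. The SE was thus 1.14 for Cd8a, 1.09 for Dntt, 0.73 for Cd4 and 0.54 for Rag1, so for such genes the lack of a call says little. At an unadjusted p under 0.05, 2 were higher (Ptcra and Btla) and 0 lower, beside 7.75% and 3.53% of all genes. Btla did not mark this stage here, with 22.4 FPKM in WT iNKT and 1.91 and 1.44 FPKM in WT DP cells. The median log2 difference of the 29 genes was 0.03, beside 0.04 over all genes. Without overlap of the libraries 13 were higher and 9 lower, beside 31.3% and 23.9% of all genes. Rag1, a subunit of the recombinase, was at 1275 and 1346 FPKM in the L-DKO and at 1114 and 1177 FPKM in WT DP cells. Rag2, its partner, was at 83.1 and 77.7 against 97.3 and 83.9 FPKM. Both L-DKO libraries were above both WT libraries for Rag1 and below them for Rag2, and neither difference passed the test. Dntt, the terminal transferase, was at 438 and 411 against 448 and 414 FPKM. Cd4 was at 341 and 327 against 326 and 335 FPKM. For both genes the groups overlapped. Cd8a was at 524 and 500 against 455 and 454 FPKM. The markers thus matched the labelled cell type in all 4 libraries, although the direction of differences this small turned with the scaling of the libraries.

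Ptcra stood apart among them. The gene was at 31.8 and 26.2 FPKM in L-DKO DP cells and at 10.8 and 10.7 FPKM in WT DP cells, a log2 difference of 1.34 (SE 0.22, adjusted p = 0.0833). It was higher in both L-DKO libraries but did not pass the test. Among 23 genes of the pre-T cell receptor, the CD3 complex and proximal signalling 0 passed, with a median difference of −0.06. At an unadjusted p under 0.05 there were 6, beside 11.3% of all genes. The CD3 chains Cd3g (252 and 251 against 181 and 158 FPKM) and Cd3d (153 and 150 against 111 and 101 FPKM) were higher in both L-DKO libraries, and the kinase gene Fyn (34.3 and 31.8 against 46.9 and 43.3 FPKM) and the phosphatase gene Ptpn22 (28.3 and 27.6 against 42.3 and 42.9 FPKM) lower, each with an adjusted p above 0.3.

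**Figure D4:**
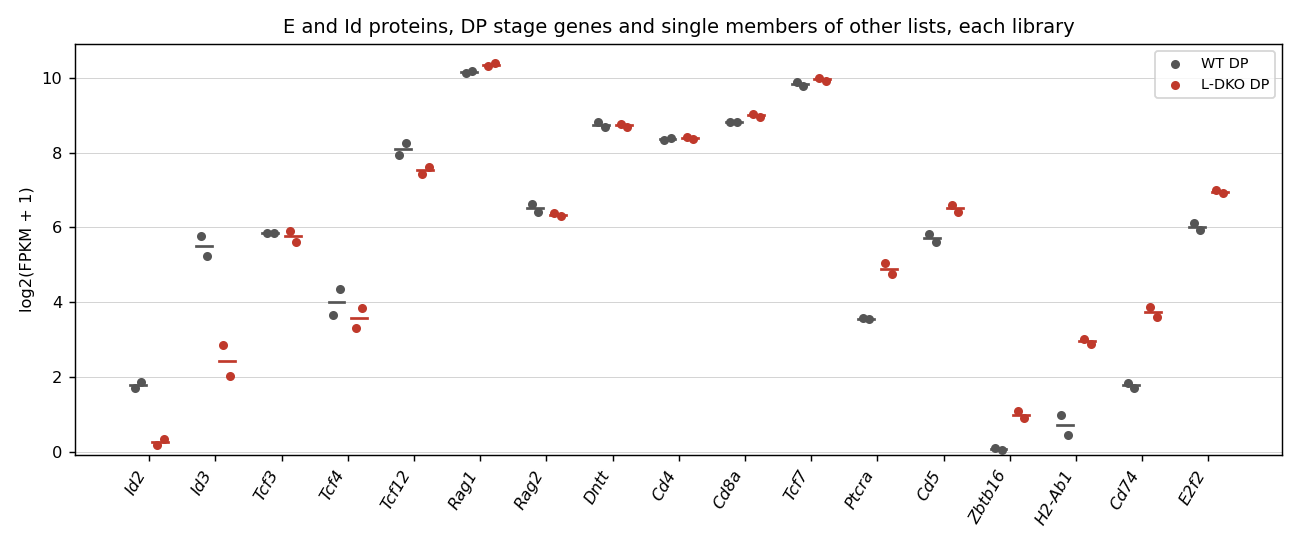
Values in log2(FPKM + 1) (y axis) in each WT and L-DKO DP library (dots) with the group mean (line) for the E and Id protein genes, DP stage genes and single genes of other lists (x axis). Id3 and H2-Ab1 passed the test, Rag1, Rag2, Dntt, Cd4, Cd8a and Tcf7 sit at nearly the same level in both genotypes, and Ptcra, Zbtb16 and Cd74 are higher in both L-DKO libraries without passing it.

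Genes of the iNKT lineage were next examined, because iNKT cells arise from DP cells. Of 29 genes for iNKT lineage factors and selection Id3 alone passed the test, and the median difference was −0.01. Zbtb16, which encodes PLZF, the factor that directs iNKT effector differentiation, was at 1.12 and 0.85 FPKM in L-DKO DP cells and at 0.07 and 0.04 FPKM in WT DP cells. It was higher in both L-DKO libraries, with a log2 difference of 0.91 (SE 0.36) that did not pass the test (adjusted p = 0.411). Its level was far below the 88.7 FPKM of the WT iNKT library. The invariant alpha chain segment Trav11 was at 4.40 and 4.74 FPKM in the L-DKO and at 5.41 and 7.18 FPKM in WT DP cells, beside 547 FPKM in WT iNKT cells. Tcf7 (TCF1) was at 1028 and 977 against 955 and 888 FPKM, Sox4 at 58.9 and 55.1 against 58.0 and 53.7 FPKM, and Lef1 at 126 and 139 against 140 and 157 FPKM. Their log2 differences were 0.12, 0.03 and −0.16, none passed, and the signs of Tcf7 and Sox4 turned when each library was scaled to 1 common FPKM total, a scaling that shifts the median over all genes to −0.30.

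Slamf1 and Slamf6, receptors that act between DP cells in iNKT selection, were at 16.3 and 19.4 against 30.4 and 36.8 FPKM and at 33.8 and 32.5 against 38.8 and 40.5 FPKM. Cd1d1, which presents lipid to iNKT cells, was at 33.8 and 28.8 against 35.0 and 35.9 FPKM. All 3 were lower in both L-DKO libraries and none passed (Slamf1 −0.88, adjusted p = 0.288). Runx1, which iNKT precursors need, was at 83.9 and 80.5 against 108 and 100.0 FPKM (adjusted p = 0.623). Gata3 was at 41.0 and 35.4 against 29.3 and 30.4 FPKM (adjusted p = 0.732), Ifngr1 at 277 and 260 against 191 and 210 FPKM (adjusted p = 0.597), Gzma at 21.3 and 18.0 against 13.1 and 8.41 FPKM (adjusted p = 0.588), and Il2rb at 0.67 and 0.31 against 1.03 and 0.23 FPKM (adjusted p = 0.972). Among effector genes 0 of 13 of type 1 and NK cells, 0 of 15 of type 2 and follicular helper cells and 0 of 8 of type 17 cells passed. At an unadjusted p under 0.05, 0, 4 and 2 did, beside 11.3% of all genes. In the follicular helper list Pdcd1 (PD-1) was at 3.95 and 3.17 against 1.01 and 0.94 FPKM (log2 difference 1.20, adjusted p = 0.279) and 8 of 15 genes were higher without overlap, beside 31.3% of all genes.

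Among 32 genes of positive selection and receptor response 0 passed (3 at an unadjusted p under 0.05, beside 11.3% of all genes), with a median difference of 0.10. That median was −0.19 with every library scaled to the same FPKM total. Cd5, which rises with receptor signal strength, was at 96.7 and 84.0 FPKM in the L-DKO and at 56.1 and 47.6 FPKM in WT DP cells (log2 difference 0.79, adjusted p = 0.386). Egr1 was at 43.9 and 41.7 against 28.4 and 26.0 FPKM, Egr2 at 7.05 and 6.29 against 4.40 and 3.66 FPKM, and Cd69, an activation marker, at 18.2 and 17.3 against 12.8 and 10.7 FPKM. These 4 genes were higher in both L-DKO libraries. Jun (1.08 and 2.14 against 2.66 and 6.48 FPKM), Fos (1.57 and 1.34 against 3.46 and 3.43 FPKM) and Runx3 (1.14 and 0.97 against 2.84 and 4.22 FPKM) were lower in both, and none of the 7 passed the test. Runx3 (chr4:135120645-135177990) lies within 10 Mb of the deleted gene Id3, and whether this position matters was not tested.

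The 10 measured genes of the MHC class II pathway had the highest median of the 27 lists, closely followed by the 3 B cell markers measured (0.81). H2-Ab1 rose, 7 of 10 were higher without overlap of the libraries (beside 31.3% of all genes) and 1 was lower, and the median log2 difference was 0.85, beside 0.04 over all genes. It stayed between 0.58 and 0.85 under every scaling of the libraries tried. Cd74, the invariant chain, was at 13.5 and 11.1 FPKM in the L-DKO and at 2.58 and 2.27 FPKM in WT DP cells (log2 difference 1.95, SE 0.57, adjusted p = 0.279). H2-Eb1 was at 4.27 and 2.94 against 0.29 and 0.32 FPKM, H2-Aa at 5.90 and 5.43 against 2.68 and 1.93 FPKM, and Ifi30, a thiol reductase of antigen processing, at 4.53 and 3.49 against 1.09 and 0.60 FPKM. None of these passed. Fewer cells of a type and less RNA per cell cannot be told apart in such bulk samples, and markers of cells that carry MHC class II were also measured. None of them passed the test, which for Igkc (SE 2.02) could not have called a difference of the size seen. All 3 B cell markers measured, of 12 listed, were higher on average (Cd79b 11.6 and 10.4 against 6.02 and 5.64 FPKM, Ighm 233 and 209 against 151 and 154 FPKM, Igkc 8.92 and 6.78 against 6.94 and 0 FPKM), with a summed level of 226 to 253 FPKM against 160 to 164 FPKM. Ighm makes up most of that sum and was at 336 and 198 FPKM in the L-DKO iNKT libraries, and Igkc overlapped between the genotypes. All 4 myeloid and dendritic cell markers measured, of 16 listed, were higher on average, summing to 41.7 to 43.1 FPKM against 30.4 to 31.5 FPKM. Cd68 and Itgam overlapped, and Lyz2 (2.10 and 2.65 against 0.55 and 0.96 FPKM) and Cst3 (33.9 and 36.1 against 26.2 and 26.0 FPKM) did not. Cst3 makes up most of that sum and was at 37.7 FPKM in the WT iNKT library and at 19.7 and 18.9 FPKM in the L-DKO iNKT libraries. Of the 3 epithelial and stromal markers measured, of 14 listed, Epcam was higher (5.50 and 5.45 against 1.98 and 1.13 FPKM) and the sum was 35.4 to 35.8 against 36.9 to 45.4 FPKM. Pecam1 (26.9 and 25.0 against 31.2 and 37.2 FPKM) makes up most of the latter sum and was at 38.8 and 50.1 FPKM in the L-DKO iNKT libraries. The part of other cells in the result was not tested.

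The 39 proliferation genes had a median log2 difference of 0.30. None passed the test (3 at an unadjusted p under 0.05, beside 11.3% of all genes). Without overlap 22 were higher and 0 lower, beside 31.3% and 23.9% of all genes. E2f2, a transcription factor of entry into S phase, was at 126 and 119 FPKM in the L-DKO and at 67.9 and 60.1 FPKM in WT DP cells (log2 difference 0.93, adjusted p = 0.339). E2f2 (chr4:136172274-136196057) lies close to the deleted gene Id3 (chr4:136143822-136145392), and whether this position matters was not tested. Ccne1, cyclin E1, was at 14.8 and 12.7 against 8.89 and 7.53 FPKM (0.68, adjusted p = 0.286). Mki67 was at 78.0 and 81.4 against 85.4 and 65.6 FPKM, so that its groups overlapped. With every library scaled to the same FPKM total the median of the list was −0.06, and the sign of the list is not settled. The 20 MHC class I pathway genes behaved alike, with 11 higher and 0 lower without overlap (beside the same 31.3% and 23.9%) and a median of 0.20 that became −0.15 under that scaling.

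In the remaining lists the median lay between −0.27 and 0.42. Of 24 cytokine and death receptor and BCL2 family genes Bax, which promotes apoptosis, was at 23.5 and 24.6 FPKM in the L-DKO and at 12.3 and 15.1 FPKM in WT DP cells (log2 difference 0.78, adjusted p = 0.203), and Socs3, an inhibitor of cytokine signalling, at 3.98 and 3.99 against 7.51 and 8.68 FPKM (−0.87, adjusted p = 0.444). Of 24 genes tied to E proteins in earlier literature 0 passed (2 at an unadjusted p under 0.05, beside 11.3% of all genes), with a median of 0.08. With every library scaled to the same FPKM total that median was −0.29, beside −0.30 over all genes, so its sign is not settled. Without overlap 10 (41.7%) were higher and 6 (25%) lower, near the 31.3% and 23.9% of all genes. Of 9 γδ lineage genes Id3 alone was called, and Tcrg-C1 was at 1.14 and 0.39 against 2.26 and 0.89 FPKM. The study took a signature from a public compendium of immune cells to mark innate-like T cells. Of its higher part 0 of 100 genes and of its lower part 0 of 41 passed. At an unadjusted p under 0.05 there were 13 and 3, beside 11.3% of all genes, and the medians were 0.10 and −0.05. With the same FPKM total these medians were −0.15 and −0.42, so the sign of the higher part is not settled. Of the lists for gene recombination (13 genes), interferon response (24), mitochondrially encoded oxidative phosphorylation (13), heat shock and dissociation (14), erythroid and platelet markers (6) and sex-linked transcripts (4) 0 genes passed, beside 0, 0, 0, 3, 0 and 0 at an unadjusted p under 0.05, where 11.3% of all genes did. The SE of the sex-linked transcripts was 1.46 to 1.85, as libraries of a γδ group differed in them (Uty 0.13 and 30.5 FPKM in WT). The test could thus hardly have called these transcripts. In DP cells Uty was at 25.4 and 36.6 FPKM in the L-DKO and at 38.5 and 50.8 FPKM in WT. In the list for migration, adhesion and thymic exit Cd96 was the 1 gene called among 20.

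**Figure D5:**
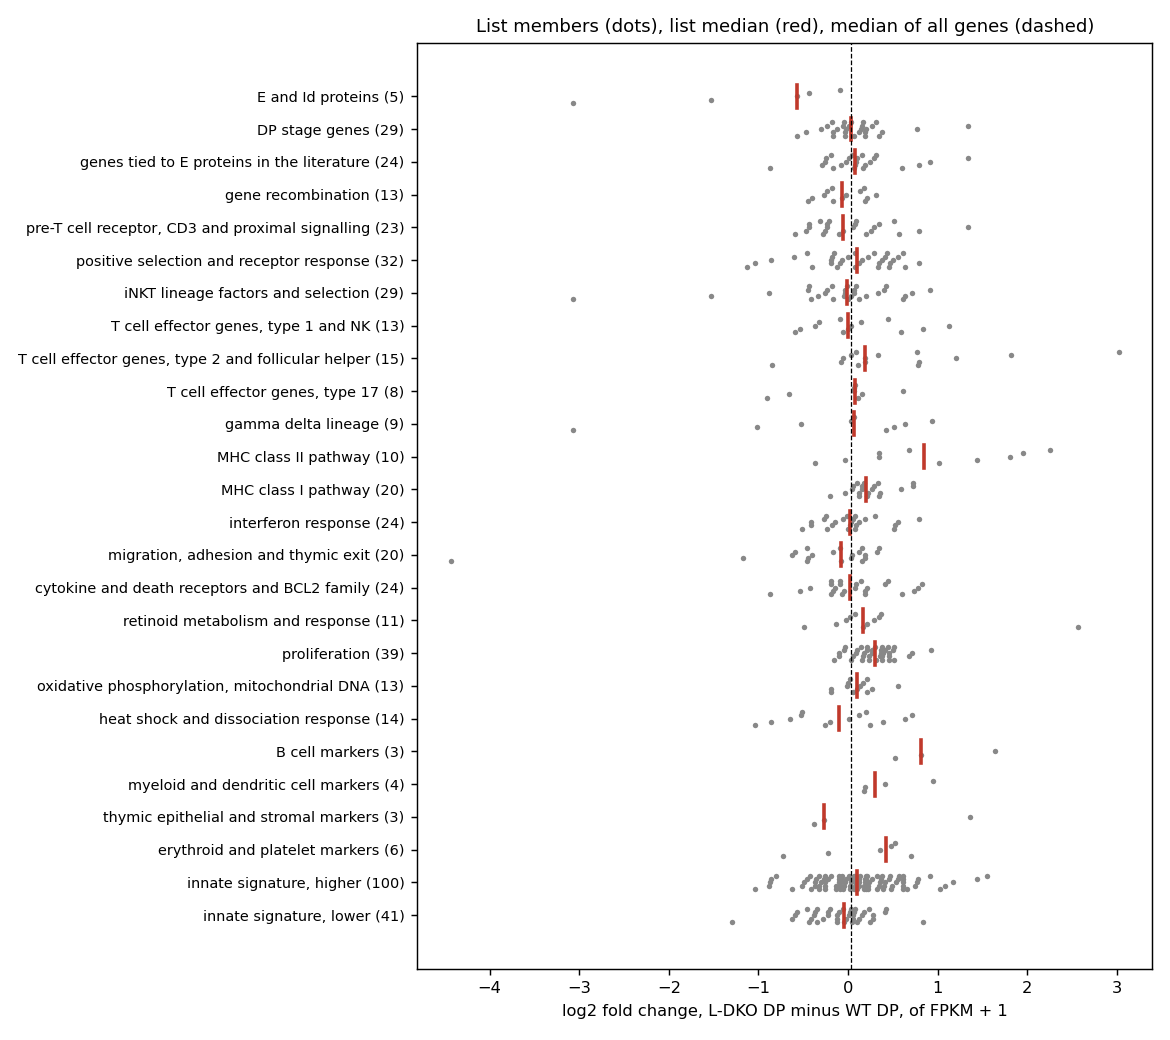
Log2 fold change between L-DKO and WT DP cells (x axis) of the members of each gene list (dots), the median of each list (red bar) and the median of all genes (dashed line), with the number of genes measured in parentheses. Most medians lie near the dashed line. The MHC class II pathway stands at 0.85 and the 3 B cell markers at 0.81, and the lists of 3 to 6 marker genes rest on few members.

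Some of the largest differences did not pass the test. Of the 12 largest rises and the 12 largest falls in expressed genes without overlap of the libraries, called or not, Sepw1, a selenoprotein, was at 5354 and 3473 FPKM in the L-DKO and at 780 and 603 FPKM in WT DP cells (log2 difference 2.65, SE 0.51, adjusted p = 0.124). Nrgn, neurogranin, a calmodulin-binding protein, was at 7.21 and 5.54 against 0.32 and 0.35 FPKM (2.46, adjusted p = 0.0711), and Phlda1, a gene induced by T cell receptor signals, at 30.1 and 27.2 against 6.23 and 5.18 FPKM (2.15, adjusted p = 0.109). Nrgn and Phlda1 rose in L-DKO iNKT cells as well, by 3.80 (adjusted p = 0.00513) and 2.66 (adjusted p = 0.0165). Pyhin1, an interferon-inducible DNA sensor family gene, was at 1.48 and 1.71 FPKM in the L-DKO and at 15.2 and 17.7 FPKM in WT DP cells (−2.74, SE 0.65, adjusted p = 0.205), and fell in L-DKO iNKT cells (−4.13, adjusted p = 0.0251). Eya2, a transcriptional coactivator, was at 1.12 and 1.79 against 4.73 and 11.6 FPKM (−1.81, adjusted p = 0.123). With the 4 DP libraries alone, Nrgn, Phlda1, Pyhin1 and Cd200 passed the test.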

How the data were processed

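Sorted DP, iNKT and γδ thymocytes were profiled by paired-end RNA-seq after RNase H depletion of ribosomal RNA. The authors trimmed reads with Trimmomatic 0.32, aligned them to mm10 (GRCm38) with TopHat2 2.0.9 and quantified them with Cufflinks 2.2.0, and the deposited values are log2 of FPKM plus 1. Neither the annotation nor whether counting used strand is given in the sources used here. The table held 11 libraries of 12 labelled samples, and 5 columns of means and 3 columns of ratios by the authors were not used. FPKM keep no depth, so no counting error could be given, and 12 symbols were date-like.

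The deposited log2 values of 11815 genes were fitted with limma 3.58.1 in R 4.3.3 without further filtering. The model had 6 groups and 5 residual degrees of freedom (prior 2.87), without a term for batch, and moderated tests of L-DKO minus WT DP, and of its difference from the iNKT and γδ contrasts, were two-sided and adjusted by Benjamini-Hochberg over all genes at 0.05. Fold changes are on the log2(FPKM + 1) scale and understate changes of low genes. Confidence comes from the spread between libraries only. Alternatives were other pseudocounts (0.1 and 5 FPKM), a filter at 1 FPKM, the DP libraries alone, 4 scalings, trended and robust variance, and each library left out except the single WT iNKT library. Positions, biotypes and promoters were matched by symbol to RefSeq (GRCm38.p6): 10376 genes by symbol, 618 by an older symbol, 821 not at all.

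Genes were named by rule: Id2 and Id3, every called gene, the 12 largest rises and falls of expressed genes (5 FPKM) without overlap, 12 genes the study names, and up to 4 leading or defining members of 27 lists. Of these, 2 genes are not reported here. The neighbours of Cd96, and Tcf3, Pvr, Cd3d, Fyn, Cd69, Mki67, Trav11 and H2-Aa, were added after values were seen. Members and lists were chosen with earlier results of these data known.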

Additional observations from a re-analysis of the deposited data

Results flagged for a closer look

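Genes called in DP cells were checked for whether the DP difference itself differed from the iNKT difference (9 of 21 genes, beside 1.73% of all genes) or from the γδ difference (14 of 21, beside 2.52%), by contrasts in the same limma fit adjusted over all genes. The 21 were picked by the DP difference, and the iNKT side has 1 WT library. Unlike the L-DKO iNKT libraries, that library held almost no Y-linked Uty RNA (0.15 FPKM).

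The DP difference was the higher in H2-Ab1, by 4.32 against iNKT (adjusted p = 0.00834) and 4.91 against γδ T cells (adjusted p = 0.00156), in Wdfy4 by 3.50 (adjusted p = 0.0196) and 4.63 (adjusted p = 0.00309), and in Rdh10 by 2.95 (adjusted p = 0.0371) and 2.27 (adjusted p = 0.0425). It was higher in Mmp14 by 3.90 (adjusted p = 0.00214) and in Rps3a3 by 2.27 (adjusted p = 0.0105) against γδ T cells, and in Gm10269 by 3.48 (adjusted p = 0.0132) against iNKT cells. The small RNAs Gm26460 (5.27 against iNKT and 9.91 against γδ) and Gm24276 (5.82 and 10.81), listed at 0 in the WT DP and the Id3-deficient γδ libraries, so that these sizes are set by the pseudocount, also differed (adjusted p = 0.0199, 0.00156, 0.0245 and 0.00171).

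The DP difference was the lower in Kcnf1 against iNKT cells (−4.28, adjusted p = 0.00834) and in Stc2 against both iNKT (−2.06, adjusted p = 0.0314) and γδ T cells (−2.29, adjusted p = 0.0112). Against γδ T cells it was lower in Cd96 (−4.09, adjusted p = 0.00156), Plcxd2 (−2.21, adjusted p = 0.00619), Ms4a6b (−2.28, adjusted p = 0.0211), Apol7b (−3.56, adjusted p = 0.0212), Apol7e (−2.89, adjusted p = 0.0159) and 4930571N24Rik (−2.37, adjusted p = 0.0411), the 6 genes besides Id3 that fell in L-DKO DP cells.

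Stc2, Kcnf1 and Gm10269 are likewise at 0 in both WT DP libraries, and the size of their differences depends on the pseudocount. With 0.1 FPKM in place of 1 the Stc2 difference from iNKT cells turned to 0.51 (adjusted p = 0.554) and that from γδ T cells was −1.14 (adjusted p = 0.132), so no direction can be read for Stc2. Under that pseudocount the Rdh10 differences no longer passed (adjusted p = 0.0621 and 0.0844), nor did 4930571N24Rik (adjusted p = 0.0518, and 0.0593 with 5 FPKM), and with 5 FPKM Gm24276 against iNKT cells did not (adjusted p = 0.0539). The other differences passed with both pseudocounts.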

How the results depend on the processing

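In place of 21 called genes, 14 of them higher and 7 lower, 33 (26 higher) were called with a pseudocount of 0.1 FPKM, 3 were lower with a pseudocount of 5 FPKM, and 8 were higher with the same FPKM total over the annotated genes, leaving out small RNA, receptor segments and predicted loci. That last setting tested 9750 genes, without any Gm or Rik gene, so called genes with such names could not pass. It called 14 genes, 13 of them among the 21. With the same FPKM total over all genes 14 in place of 9 differed from iNKT cells. Leaving out 1 library gave 3 to 29 calls, 1 to 20 higher and 1 to 9 lower, 0 to 9 differing from iNKT and 7 to 13 from γδ T cells. The share of higher calls was 66.7%, and 57.1 to 88.9% elsewhere except 33.3% without L-DKO library a, where 3 genes were called. Apart from the genes left out with the total over the annotated genes, the causes were not tested. No paired analysis was possible because the DP columns of a group carry the same name and no replicate number. The same FPKM total moved the median of all genes from 0.04 to −0.30, and signs of small uncalled differences turned. Under it Cd4 (−0.36), Cd8a (−0.20), Dhrs3 (−0.0011), Gata3 (−0.0249), Mki67 (−0.28), Pvr (−0.25), Rag1 (−0.18), Sox4 (−0.34) and Tcf7 (−0.25) were negative. With the total over the annotated genes Cd4 (−0.16), Cd8a (−0.0013), Mki67 (−0.0825), Pvr (−0.05), Sox4 (−0.14) and Tcf7 (−0.0513) were, after quantile normalization Cd4 (−0.36), Cd8a (−0.26), Rag1 (−0.22), Sox4 (−0.0141) and Tcf7 (−0.53), and with the same median Cd4 (−0.024) and Sox4 (−0.0108). Leaving out 1 library at a time gave differences of −0.0136 to 0.0465 for Cd4, −0.0779 to 0.0342 for Dntt, −0.45 to 0.27 for Il2rb, −0.099 to 0.28 for Mki67, −0.0252 to 0.0846 for Sox4 and −0.24 to 0.0479 for Tcf3. No called gene changed sign.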
